A study of Homo sapiens with 8 samples.

Results

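The H19-IGF2 and KCNQ1 domain is a stretch of 1.1 Mb at the end of the short arm of human chromosome 11 (hg19 chr11:1900000-3000000) in which 2 neighbouring clusters of imprinted genes lie. CTCF was mapped there by ChIP-seq in HT1080, a human fibrosarcoma line derived from connective tissue and labelled as positive for the ras oncogene (ras +). Control cells had no drug, and treated cells had 3 µM CBL0137, a DNA-binding curaxin, in the medium for 6 h. Each condition had 2 biological replicates of the anti-CTCF ChIP and 2 of input DNA, which makes 8 libraries, and the peak caller joined the replicates of a condition in a single list of peaks. No replicate error could therefore be computed from these lists, and no test between the conditions was run on them. A peak belonged to the domain if its centre lay within these bounds. This gave 37 of the 47470 control peaks and 34 of the 29558 peaks of treated cells. A control peak is called kept if at least 1 bp of it is covered by a treated peak and lost if not, and a treated peak that overlaps no control peak is called arisen. Over the whole lists 42.9% of control peaks were lost and 8.07% of treated peaks had arisen, and every count of the domain is to be read beside these shares. The strength of a peak is its fold enrichment of ChIP over the input of the same condition, and folds were ranked only within their own list. Because the treated list is shorter and lacks mainly weak peaks, ranks were taken over the same 27107 control peaks with a treated counterpart, by control fold and by the fold of the counterpart.

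CTCF is a zinc finger protein that binds a long DNA motif, halts loop extrusion by cohesin and can separate enhancers from promoters. At H19-IGF2, the best known imprinted insulator, CTCF binds a control region upstream of H19 on the unmethylated maternal chromosome. H19, a noncoding RNA, is made from that chromosome, whereas IGF2, a growth factor of fetal tissues, is made from the paternal one. In the neighbouring cluster a second control region, inside KCNQ1, is the promoter of the antisense noncoding RNA KCNQ1OT1. That RNA is linked with silencing of genes such as CDKN1C, an inhibitor of cyclin-dependent kinases, and PHLDA2, a gene that restrains placental growth. The peak lists join both parental chromosomes and hold no allele information.

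The 8-letter core GGNGGCAG is shown first, because its repeats mark the H19 upstream control region. It was searched on both strands of the 10 kb before the H19 start, the 5′ end (2019072) that recurs most often among the annotated H19 transcripts, in 7 of 31. There were 10 matches, 8 of them on the minus strand, which is also the strand of H19. These 8 lay between 0.41 and 5.18 kb upstream of H19, and 7 of them read GGCGGCAG. In the lines below each is named by its distance upstream of H19, and 30 bases of the minus strand of GRCh37 are given 5′ to 3′ with the core in capitals.
Core at 0.41 kb (chr11:2019464-2019493): tgagccgtgatGGTGGCAGgaaggggccct
Core at 1.21 kb (chr11:2020264-2020293): aatggccgagaGGCGGCAGtggtgactcac
Core at 2.13 kb (chr11:2021187-2021216): agtggccgcgcGGCGGCAGtgcaggctcac
Core at 2.54 kb (chr11:2021593-2021622): ggtggctgcgcGGCGGCAGtgcaggctcac
Core at 2.94 kb (chr11:2021999-2022028): agtggccgcgtGGCGGCAGtgcaggctcac
Core at 4.37 kb (chr11:2023432-2023461): agtggccgcgcGGCGGCAGtgcaggctcac
Core at 4.78 kb (chr11:2023833-2023862): agtggccgcgcGGCGGCAGtgcaggctccc
Core at 5.18 kb (chr11:2024238-2024267): agtggccgcgcGGCGGCAGtgcaggctcac
The 6 cores from 2.13 kb onwards share nearly all of their neighbouring letters, and those at 2.13, 4.37 and 5.18 kb are identical over the 30 bases printed. Across the 110 stretches of 10 kb in the domain the median was 8 matches, and 34 stretches held at least as many as the H19 window.

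In control cells, 3 peaks lay in the 10 kb upstream of the H19 start, all of them inside introns of the longest annotated H19 isoforms. The first (chr11:2019601-2019850) was centred 0.65 kb upstream of H19 with a fold of 37.7 and an FDR of 7.23e-07. The second (chr11:2021051-2021250), 2.08 kb upstream, had a fold of 30.0, and the third (chr11:2023351-2023500), 4.35 kb upstream, a fold of 46.4. Their FDRs were larger, at 0.000209 and 5.39e-05. The second and the third hold the cores at 2.13 and 4.37 kb, and the first holds no core, so that 2 of the 8 minus-strand cores lay in a control peak. In treated cells the second peak had no counterpart, while the other two kept one. The first was then called at chr11:2019651-2019850 with a fold of 23.3 over its own input, and the third at unchanged bounds with a fold of 18.9. The FDRs of these treated peaks were 0.000343 and 0.00117. Of the 8 minus-strand cores, 1 lay in a peak of treated cells. Among all kept peaks both survivors ranked lower by treated fold than by control fold. The third was at the 80.3rd percentile in control cells and at the 24.6th in treated cells, the largest downward difference among the 28 kept peaks of the domain. Of all kept peaks 3.73% differed downwards by at least as much. The first was at the 58.7th and the 35.7th percentile, so that both stood above the median in control cells and below it in treated cells.

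The near-identity of the repeats also bears on how well reads can be placed, since the authors removed reads with more than 1 alignment. Stretches of 75 bases were compared with all others in the domain, and a stretch was counted as having a near copy if another place matched it with at most 7 mismatches. For the cores at 2.13, 2.54, 2.94 and 4.78 kb, all stretches over the core (100%) had a near copy, against 40.2% at 4.37 kb, 24.4% at 5.18 kb and 0% at 0.41 and 1.21 kb. Over whole peaks the share was 60.2% in the lost peak at 2.08 kb, 18.3% in the kept peak at 4.35 kb and 0% in the kept peak at 0.65 kb. No other peak of the domain held a near copy, and none of these stretches had an exact one. The sources differ on the reads, which the labels describe as paired-end and the study's methods as single-end of 75 bases, so that shares for stretches of 75 bases describe the DNA and may not be those of the reads. The part of read placement in the loss of the middle peak was not tested.

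The strongest control peak of the domain stood between H19 and IGF2. That peak (chr11:2058101-2058500, intergenic, 39.2 kb upstream of H19) had a fold of 65.4 in control cells and was kept with a fold of 38.9, at the 97.5th percentile by control fold and the 71.0th by treated fold. Another intergenic peak (chr11:2095601-2095800) stood the other way, with a fold of 22.7 in control cells and 33.1 in treated cells and at the 14.0th and the 59.3rd percentile, the largest upward difference in the domain. After it came 3 lost peaks in a row. They were intergenic at chr11:2110301-2110500 (fold 37.6) and chr11:2144601-2144800 (fold 22.3), and in an intron of IGF2 at chr11:2171451-2171750 (fold 17.6, the lowest of the 37). The nearest treated peak was 14500, 20700 and 900 bp away from them, respectively.

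IGF2, which lies on the minus strand like H19, kept its other control peaks. A wide peak of 850 bp in an intron (chr11:2172701-2173550) had a fold of 47.1 and was called again with the same width, shifted by 1 step of the 50-bp grid of the lists, with a fold of 32.7. The neighbouring intronic peak (chr11:2177701-2178050, fold 42.1) narrowed from 350 to 250 bp with a fold of 41.0. A narrow peak of 100 bp arose in an intron shared by IGF2 and its antisense transcript IGF2-AS (chr11:2165501-2165600, fold 24.02). Within 10 kb of IGF2 there were 5 control peaks, of which 2 were lost, and 4 treated peaks. INS, the insulin gene next to IGF2, had no peak in its body in either list. Of the 4 control peaks within 10 kb of it, 1 was lost. The closest gene beyond, TH, which encodes tyrosine hydroxylase, held an exonic peak (chr11:2187351-2187700) that kept its bounds, with a fold of 56.5 in control cells and 52.1 in treated cells.

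**Figure D1:**
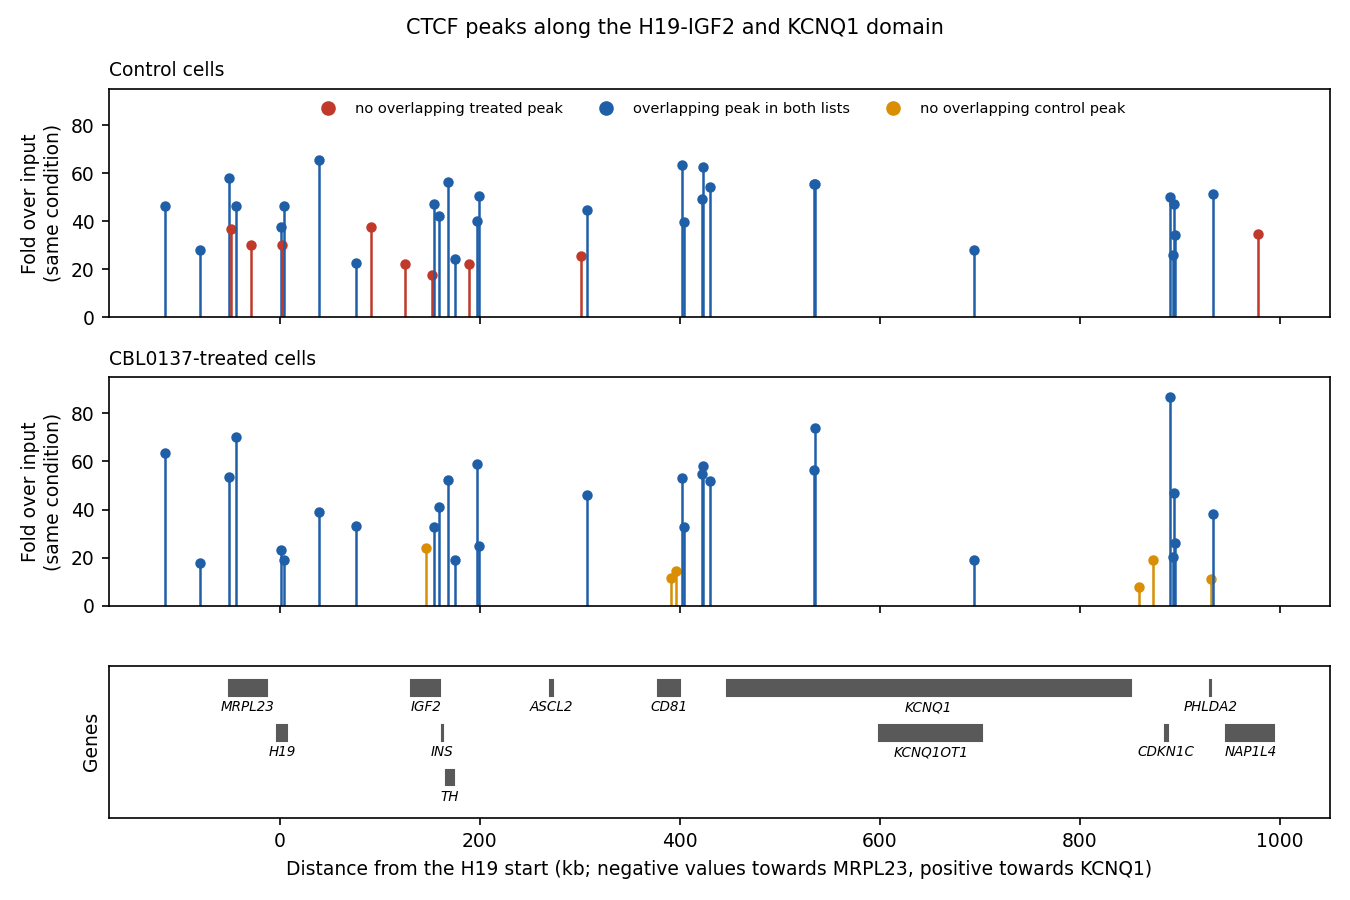
CTCF peaks of control cells (top) and CBL0137-treated cells (middle) by distance from the H19 start in kb, with genes below. Each stem is a peak and its height the fold over the input of the same condition; the 9 lost peaks stand mostly to the left, near H19 and IGF2, and 5 of the 6 arisen peaks to the right.

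KCNQ1, a potassium channel gene of 404.5 kb, carried 3 control peaks, all of which had an overlapping treated peak, although the third of them was not kept where the overlap had to exceed 50% of the larger peak. Of these, 2 formed a close pair in an intron far from the imprinted promoter. The first (chr11:2552601-2553000) had a fold of 55.5 in control cells and 56.2 in treated cells, and the second (chr11:2553951-2554400) had 55.7 and 74.0, both with unchanged bounds. From this pair to the next control peak 159300 bp were free of peaks. That next peak (chr11:2713701-2713800, 100 bp, fold 28.2) lay in an intron of KCNQ1 and in the exon of KCNQ1OT1, 7.47 kb inside that transcript from its start. Its FDR of 0.00122 was the largest among the control peaks of the domain. In treated cells it was called with 250 bp and a fold of 19.1. No peak of either list lay within 1 kb of the KCNQ1OT1 start itself, the promoter used as the second control region. Beyond it came the widest gap of the domain, 195800 bp, which control cells left without a peak.

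CDKN1C had no peak in its body but 4 in the 10 kb around it, all upstream of its start and all kept. The strongest (chr11:2909601-2910000, in an exon of SLC22A18AS, 2.80 kb upstream of CDKN1C) had a fold of 49.96 in control cells and 86.6 in treated cells, the highest of the treated peaks of the domain. Its bounds were unchanged, and it was at the 85.9th percentile by control fold and the 99.8th by treated fold. The others were clustered further upstream in introns of SLC22A18AS. They lay 5.67 kb away with a fold of 25.9 in control cells and 20.3 in treated cells, 6.45 kb away with 47.1 and 47.0, and 7.25 kb away with 34.1 and 26.2. These 3 narrowed from 250, 500 and 300 bp to 150, 400 and 250 bp. PHLDA2 had a single control peak nearby, an intergenic one of 850 bp at chr11:2951651-2952500, with a fold of 51.4. It was kept with 700 bp and a fold of 38.2, at the 87.9th and the 69.7th percentile. In the 50 kb on either side of CDKN1C, which include PHLDA2, 5 of 5 control peaks were kept (56.6 to 100%). Over the whole list 42.9% of control peaks were lost. When all control peaks were divided by control fold into 10 groups of equal size, the groups of these 5 peaks lost 7.60 to 41.6%. Of the 8 treated peaks in this window 3 had arisen, against 8.07% of all treated peaks. The counts are small, and whether the window differs from the whole lists was not tested.

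**Figure D2:**
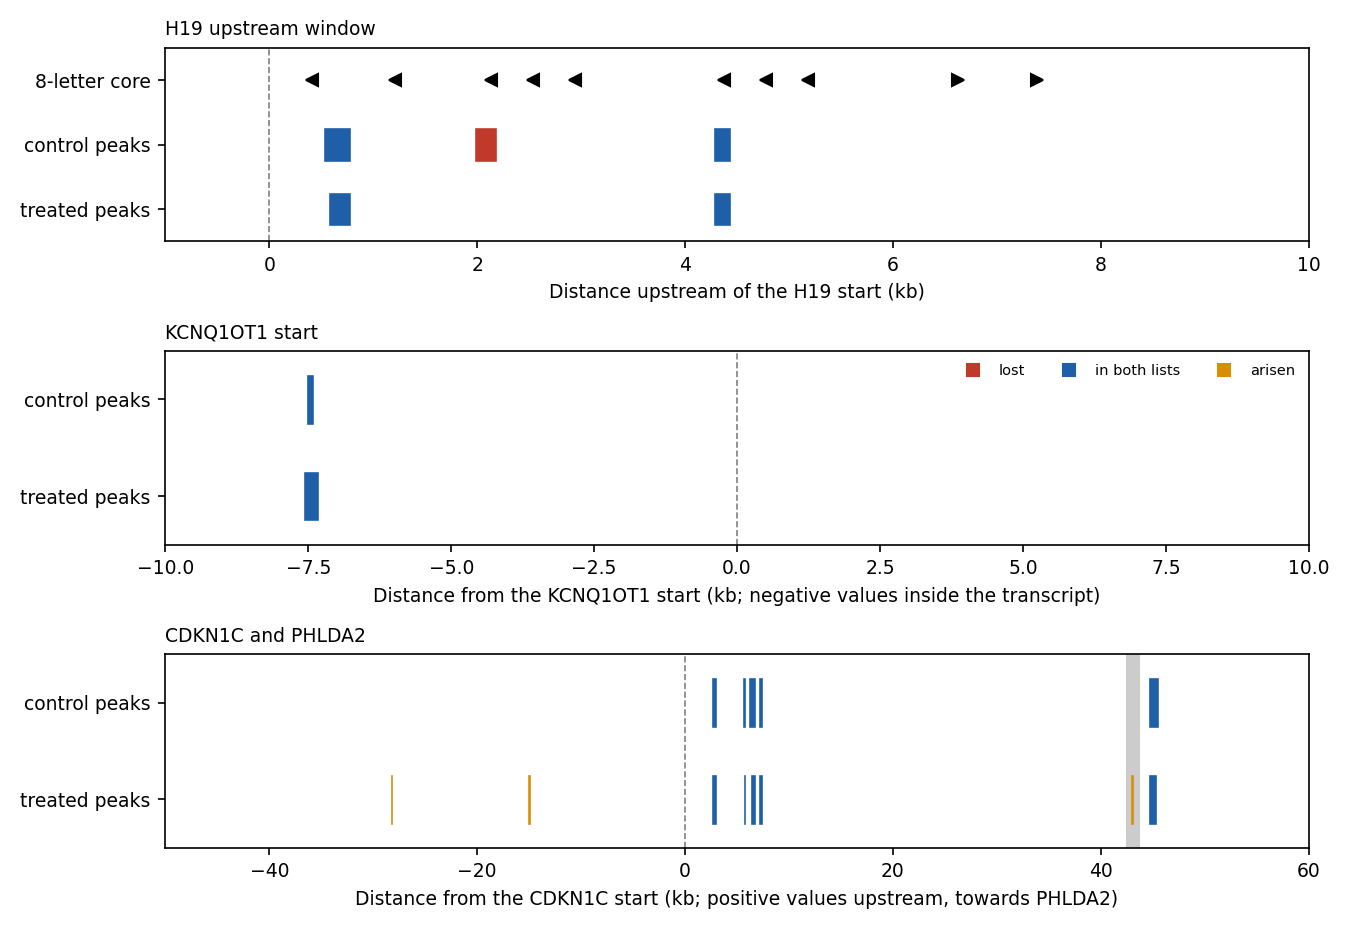
Peaks around the H19 start, the KCNQ1OT1 start and the CDKN1C start (dashed lines), as boxes over the distance in kb, with the gene body of PHLDA2 in grey. Triangles in the upper panel mark the 10 cores and point along their strand; 2 of the 3 control peaks upstream of H19 have a treated peak at the same place, as do all 5 around CDKN1C.

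Over the whole domain, 9 of the 37 control peaks were lost, or 24.3% (Wilson 95% interval 13.4 to 40.1%, counting error only), against 42.9% of all control peaks. By the stricter rule that the overlap must exceed 50% of the larger peak, 10 of 37 (27.0%) were not kept, against 50.7% of all control peaks. The additional one was the peak in KCNQ1OT1, whose overlap covered 40% of its wider treated counterpart. The domain's peaks were stronger than most, with a median control fold of 42.1 against 28.7 over all control peaks, and 28 of the 37 were above that median. All control peaks were therefore divided by control fold into 10 groups of equal size. If each domain peak were lost as often as all peaks of its group, 23.4% would be lost, beside the 24.3% seen. Among domain peaks above the median of the list 5 of 28 were lost (17.9%, against 20.1% of all peaks above it), and below it 4 of 9 (44.4%, against 65.7%).

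Kept peaks of the domain had a median control fold of 46.8 (22.7 to 65.4) and lost ones of 30.0 (17.6 to 37.6), so that the ranges overlap. Over all control peaks the medians were 34.9 and 20.6. Of the 18 peaks of 350 bp or more none was lost (0 of 18, which allows a share of up to 16.7%), whereas 9 of the 19 peaks of 300 bp or less were (47.4%). Over all control peaks the shares were 11.5% and 64.9%. Since a wide peak also has more bases in which to meet a treated peak, width and overlap are not independent measures.

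**Figure D3:**
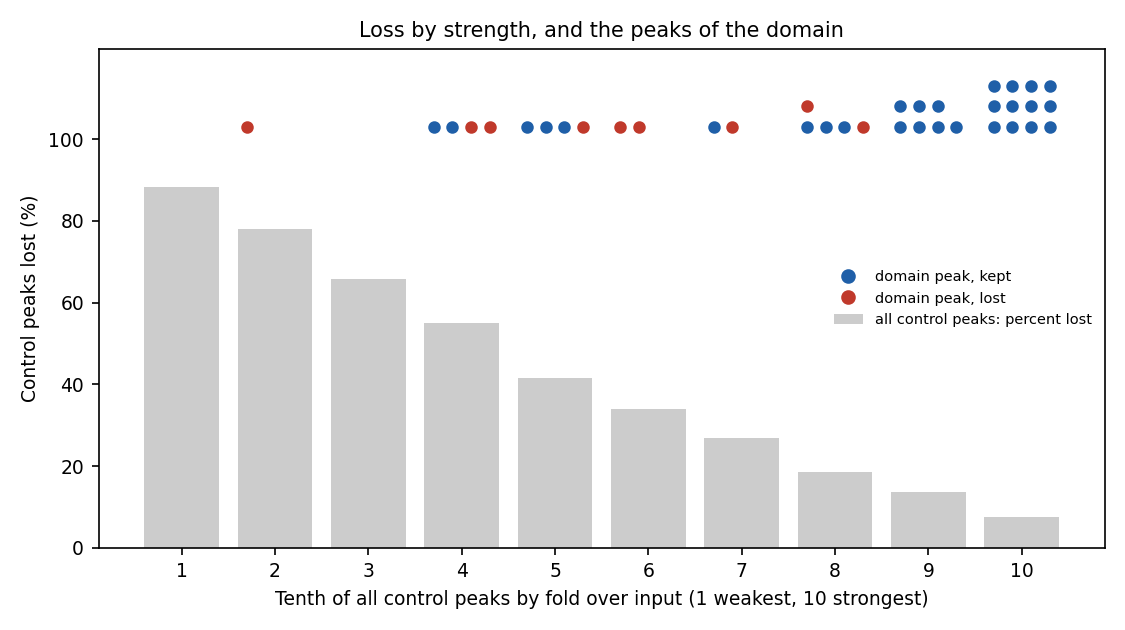
Share of all control peaks lost (grey bars, percent) in 10 equal groups by control fold, from weakest to strongest, with each of the 37 domain peaks as a dot above its group (height within a stack has no meaning). The 19 domain peaks of the strongest 2 groups were all kept, and the lost ones lie in groups 2 to 8.

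The lost peaks not yet described were scattered through other genes. MRPL23, a mitochondrial ribosomal protein gene next to H19, lost 2 of its 4 peaks, both intronic, at chr11:1970251-1970500 (fold 36.8) and chr11:1990351-1990600 (fold 30.1). It kept the peak at its start (chr11:1968401-1968700, fold 57.8 in control and 53.5 in treated cells) and a further intronic one (chr11:1974751-1975150, 46.4 and 70.1). Beyond TH, an intergenic peak at chr11:2208001-2208250 (fold 22.4) and a peak of 150 bp in an untranslated region of C11orf21 (chr11:2320601-2320750, fold 25.5) were lost. From chr11:2326551 in TSPAN32 to chr11:2952500 next to PHLDA2, 14 control peaks in a row were then kept. They include the KCNQ1OT1 peak, which was not kept where the overlap had to exceed 50% of the larger peak. All lie on the KCNQ1 side described below, where 16.3% would be lost at equal strength. How often such runs occur over the whole list is not given here. This run included 3 strong intronic peaks of TRPM5, a cation channel gene, with control folds of 49.2, 62.5 and 54.1 and treated folds of 54.7, 58.1 and 52.0. The run ended with the lost peak at chr11:2996901-2997200 in an intron of NAP1L4 (fold 34.9), a nucleosome assembly protein gene. Of the 16 other genes in or next to the domain that were looked at, 13 had a control peak of the domain within 10 kb. Of these, 8 had none that was lost. Neighbouring genes shared peaks, as CD81, TSSC4 and TRPM5 did, so the genes are not separate cases. The count was not made over all genes and has no background share. Only peaks of the domain were counted, so CARS1, which lies beyond its end, could have none. The windows of LSP1 and NAP1L4 were cut at the bounds of the domain.

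Set side by side, the H19-IGF2 side and the KCNQ1 side of the domain kept different shares of their peaks, although this division was made after the values were seen. Of the 22 control peaks nearer to the H19-INS span 8 were lost (36.4%, 19.7 to 57.0%), and of the 15 nearer to the KCNQ1-PHLDA2 span 1 was lost (6.67%, 1.19 to 29.8%). The intervals overlap. Peaks of the KCNQ1 side were stronger in control cells, with a median fold of 49.2 against 37.6, and the shares lost at equal strength over all control peaks were 16.3% and 28.2%. In the 1.1 Mb before it 9 of 39 control peaks were lost (23.1%, 12.6 to 38.3%), and in the 1.1 Mb after it 6 of 23 (26.1%, 12.5 to 46.5%). Those shares were below the 35.8% and 42.4% of all control peaks of equal strength. In the rest of chromosome 11, 39.6% were lost.

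Of the 34 treated peaks 6 had arisen (17.6%, 8.35 to 33.5%), against 8.07% of all treated peaks. Some other rules showed this difference, such as a fold of at least 10 in both lists (15.2% against 7.72%), and others did not. With an overlap above 50% of the larger peak required, the shares were 20.6% and 20.8%, and with the control list cut to the length of the treated list they were 23.5% and 24.4%. Besides the one in IGF2, 2 lay in introns of CD81, a tetraspanin gene, at chr11:2410551-2410700 (fold 11.4) and chr11:2415601-2415850 (fold 14.6). In the gap between KCNQ1OT1 and CDKN1C, 1 lay in KCNQ1-AS1 (chr11:2878701-2878800, fold 7.66, the lowest treated fold of the domain) and 1 in an exon of KCNQ1DN (chr11:2891901-2892050, fold 19.1), 2 noncoding transcripts of the cluster. The last lay in an intron of PHLDA2 (chr11:2949951-2950100, fold 11.1), 1550 bp from the nearest control peak. Their median fold was 13.0, against 43.5 for the 28 treated peaks shared with control cells. In the 1.1 Mb before the domain 9 of 38 treated peaks had arisen (23.7%), and in the 1.1 Mb after it none had (0 of 17, which allows a share of up to 17.6%).

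Of the 28 kept peaks, 14 were narrower after treatment, 7 had the same width and 7 were wider, against 62.4%, 22.6% and 15.0% of all kept peaks. Bounds were identical in 6 (21.4%, against 19.8% of all kept peaks). The median width changed by -25 bp, against -50 bp over all kept peaks. By rank among all kept peaks, 15 stood lower in treated cells (53.6%, against 48.8% of all kept peaks) and 13 higher. After the H19 peak at 4.35 kb, the largest downward differences were in an intergenic peak at chr11:2218451-2218850 (86.5th and 39.9th percentile), the strong peak between H19 and IGF2, the wide IGF2 peak (81.6th and 58.4th) and the H19 peak at 0.65 kb. The largest upward differences were at chr11:2095601-2095800 (14.0th and 59.3rd) and chr11:2216101-2216600 (65.6th and 94.6th). Next came the MRPL23 intron peak at chr11:1974751-1975150 (80.2nd and 98.4th).

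**Figure D4:**
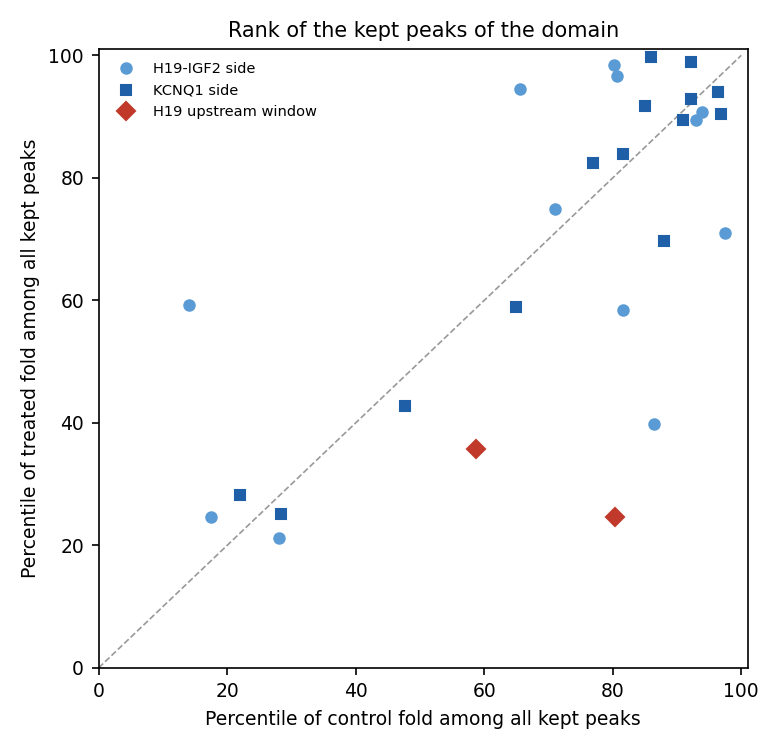
Percentile of control fold (horizontal) and of treated fold (vertical) among all kept peaks, for the 28 of the domain; on the dashed line the rank is the same. Both peaks of the H19 upstream window (diamonds) lie below the line, at percentiles 80.3 and 24.6 and at 58.7 and 35.7, and 15 of the 28 points in all lie below it.

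The DNA under the peaks was searched for CTCF sites with a 20-base matrix built from control peaks of the other chromosomes. A site was called at 9.94 bits, a score that 5% of equally long windows 10 kb away reached. The best sites in peaks of the member genes are shown, because they give the letters and the strand behind the kept peaks, together with the highest-scoring site of the domain (TRPM5) and of a lost peak (C11orf21). Each line gives 30 bases of GRCh37, 5′ to 3′ on the strand named, with the matrix site in capitals.
IGF2 intron, wide peak, minus strand (chr11:2172826-2172855): tagaaATGGCCGCCAGGTGTCAGCAtaagg
IGF2 intron, second peak, minus strand (chr11:2177854-2177883): cgggtGCGACCAGCAGATGGCATCAgagcc
KCNQ1 intron, first of the pair, minus strand (chr11:2552779-2552808): agcaaATAGCCACCAGGTGGCGCACagacc
KCNQ1 intron, second of the pair, plus strand (chr11:2554174-2554203): ggcctGTAGACGCCAGAGGGCGCTCgtgct
KCNQ1OT1, plus strand (chr11:2713749-2713778): ggctcCCTACCACCAGAGGGCCCTTggcct
CDKN1C, 2.80 kb upstream, minus strand (chr11:2909773-2909802): tccatCTGGCCAGCAGAGGGCGCAGaagga
PHLDA2, plus strand (chr11:2952100-2952129): ggggcAGTGCCGGCAGAGGGCAGGGttggg
TRPM5 intron, plus strand (chr11:2449600-2449629): gcctgTCAGCCACCAGAGGGCGCTAaagga
C11orf21, lost peak, minus strand (chr11:2320694-2320723): gtcctCGGGCCAGGAGGTGGCAGCCtctac
The sites in TRPM5 and upstream of CDKN1C scored 23.1 and 22.4 bits, the first of the KCNQ1 pair 20.7 and the KCNQ1OT1 site 15.0. The lost C11orf21 peak, at 17.8 bits, scored above both IGF2 sites (16.8 and 17.2), so that a high score did not go with being kept in every case. The 2 sites of the KCNQ1 pair point in opposite directions.

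A matrix site was found in 32 of the 37 control peaks (86.5%, 72.0 to 94.1%), against 74.1% of all control peaks. Windows 10 kb away held one in 16.2% of cases in the domain and in 5.02% over all peaks. By fate, 26 of 28 kept peaks had a site (92.9%, against 88.3% of all kept peaks), and 6 of 9 lost peaks did (66.7%, against 55.2% of all lost peaks). Only 2 of the 6 arisen peaks had one (33.3%, 9.68 to 70.0%), against 70.9% of all arisen peaks. Every one of the 26 kept peaks with a site had its best site inside the treated counterpart as well. The best site held a CpG, the dinucleotide that is methylated at imprinted regions, in 23 of these 26 kept peaks and in 3 of the 6 lost peaks with a site. This count was not made over all control peaks, so it has no background share, and whether CpG goes with fate was not tested. The 3 peaks upstream of H19 were among the 5 without a called site, with best scores of 9.85 in the first and 9.68 in each of the others, just under the threshold. The core GGNGGCAG, which can overlap a matrix site, was in 17 of 37 control peaks (45.9%, against 22.7% of all control peaks). Windows 10 kb away held it in 18.9% of cases in the domain and in 13.9% over all peaks. The domain was also rich in GC, with a median of 61.8% over 500 bp around the peak centre against 45.6% over all control peaks, and a median of 15 CpG against 6. The methylation of these CpG was not measured in the data used here.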

How the data were processed

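CTCF ChIP-seq and input libraries of control and CBL0137-treated HT1080 cells were mapped by the authors to hg19 with Bowtie2 2.2.3. Reads with more than 1 alignment were removed by their XS:i flag and duplicates with SAMtools 1.5. Peaks were called with PePr in sliding windows of 100 bp. The lists of control and treated cells, 1 per condition with both replicates pooled, were used. The fold enrichment deposited by the authors is a ratio of ChIP over input, and the score deposited beside it is that fold scaled to a ceiling. The FDR of each peak, an adjusted p-value, is also as deposited by the authors, who state a p cutoff of 0.05. The other 2 lists hold the authors' own comparison of the conditions (folds and p-values) and were not used. The lists hold no read counts, so the depth behind a peak is unknown here, and the intervals cover counting error only.

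Samples were grouped by their titles. Peaks on 50-bp grid coordinates were joined by an overlap of at least 1 bp, shares were given Wilson 95% intervals, and the expected loss was averaged over 10 groups of peaks by control fold. GRCh37 has the coordinates of hg19, and no peak ran past the end of its chromosome. Genes were from GENCODE v44lift37, and the H19 start was the most frequent 5′ end, that of 7 of its 31 transcripts. The CTCF matrix was built from 6330 sequences matching its consensus and refined in 2 rounds over the 2000 strongest control peaks, without chromosome 11, and peaks were searched with 50 bp added on each side. Near copies were looked for inside the domain alone. Values are given in full for peaks near the member genes and for all lost and arisen peaks; the members and lists were chosen with earlier results of these data known. The routines were tested on simulated data and run in Python 3.11.15 with numpy 2.4.6, pandas 2.3.3, numba and matplotlib 3.10.9. Other overlap rules, thresholds on FDR and fold, and equal list lengths were tried. Ranking folds among kept peaks alone was chosen after seeing the data.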

Additional observations from a re-analysis of the deposited data

How the results depend on the processing

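The share of the domain's control peaks that was lost lay between 18.8% (control list cut to the length of the treated list) and 43.2% (overlap above 75% of the larger peak), and it was below the share of all control peaks under each of the 8 alternatives of threshold, overlap or list length (24.6% and 67.7% in these settings). None of these 8 settings matched peaks by strength. By the main rule, 23.4% would be lost at equal strength, beside the 24.3% seen. The median control fold of kept peaks exceeded that of lost ones by 16.9, and by 14.6 to 20.2 under the 8 alternatives. The KCNQ1OT1 peak rests on the rule: 0 peaks were kept in its window when the overlap had to exceed 50% or 75% of the larger peak, and 0 with both lists at an FDR of at most 1e-05, where no control peak was left. The number of arisen peaks was 13 with an overlap above 75% and 2 at that FDR, where 22 treated peaks remained in the domain. The arisen share exceeded that of all treated peaks by any overlap, above 25% of the larger peak, by centre distance and with the FDR or fold threshold, but not above 50% or 75% of the larger peak (38.2% against 48.1% at 75%), above 50% of the control peak or with lists of equal length. At that FDR, 0 peaks were kept upstream of H19, where 1 control peak was left, and 3 of 5 around CDKN1C. With the outermost annotated 5′ end of H19 (2025782) as its start, a choice added after seeing the data, the window of 10 kb before it held no peak and 0 were kept. Each of these settings by construction leaves fewer peaks, asks for more overlap or moves the window. No paired analysis was possible because each list joins the replicates of its condition, and for the same reason no replicate could be left out. Depth, copy number and the parental chromosome of the peaks are unknown here, and narrow peaks with a large FDR are the least certain.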

Other observations

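Outside the genes named so far, the domain's peaks at the LSP1 and TSSC4 genes were kept. The LSP1 peak, in an intron of this leukocyte actin-binding protein gene (chr11:1903651-1904050), had a fold of 46.6 in control cells and 63.7 in treated cells. At TSSC4 the peak 92 bp from the annotated start (chr11:2421451-2421800) had folds of 63.6 and 53.1, and its neighbour (chr11:2422951-2423150) had 39.8 and 32.9. ASCL2, a transcription factor gene of the same imprinted region, had no peak within 10 kb in either list. Of the 32 control peaks with a CTCF site, the best site was on the plus strand in 20 and on the minus strand in 12, and its median distance to the peak centre was 13 bp.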
